A study of Mus musculus with 16 samples.

Results

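A set of 373 regions was open in Tet1 knockout (KO) cells on day 3 of neural differentiation, was also open when the KO cells had been given the Wnt inhibitor XAV939 (XAV), and was not open in untreated wild type (WT) cells of that day. The regions were selected on the same measurement that is reported here, ATAC-seq, in which a transposase tags accessible DNA for sequencing. In each of 16 libraries the 50000 distinct peak intervals that the authors' peak caller gave the highest −log10 p were kept, and windows of 150 bp on either side of their summits were merged into 80585 consensus regions, each held by at least 2 libraries. A region was called open in a library when a kept interval overlapped it. The values that chose the set were those of 8 libraries of day 3: open in both KO and both XAV-treated KO libraries, in 0 of 2 WT libraries and not in both libraries of catalytic mutant (MUT) cells. Of the 2726 regions that met the rule without XAV, these 373 (13.7%) were open in both XAV libraries and are called XAV-open here. Another 1866 (68.5%) were open in neither and are called XAV-closed, and 487 were open in 1 of 2.

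The cells were mouse embryonic stem cell (ESC) lines of a B6129S6F1 hybrid background, labelled for the allele Tet1 tm1Koh, that were differentiating towards anterior neural progenitor cells (antNPCs). WT, MUT and KO lines were sampled untreated on day 2 and day 3, KO lines on day 3 with 5 µM XAV, and WT lines on day 3 with 3 µM CHIR99021 (CHIR), both compounds being added on day 2. Each of the 8 groups had 2 libraries from lines with separate names. Both KO lines recur in all 3 KO groups (day 2, day 3 and XAV), so a feature of a line would recur there too. The MUT lines were clones made by CRISPR from 1 WT line. Whether the untreated WT lines were also clones of 1 line is not given in the labels, so the spread within WT and within MUT may be one between clones. The CHIR libraries came from other WT lines than the untreated ones, so line and treatment cannot be told apart there. The labels give no group with vehicle alone.

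TET1 is a dioxygenase that oxidises 5-methylcytosine, and it also binds chromatin and recruits other proteins without that activity. The MUT protein lacks the catalytic activity, whereas KO cells lack the protein. In the Wnt pathway, a destruction complex around AXIN and GSK3 degrades β-catenin. XAV inhibits tankyrases and so stabilises AXIN, which lowers β-catenin, and CHIR inhibits GSK3, which raises it. Stabilised β-catenin acts on DNA through TCF/LEF factors, and Wnt signals drive epiblast cells to primitive streak, mesoderm and endoderm rather than neuroectoderm. Regions of KO cells that were open with and without XAV are those at which the compound did not move a region across the limit.

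The central 300 bp of 6 of the regions are shown because the day 2 results turn on them or because they had the strongest peaks. They were read on the plus strand of the RefSeq copy of GRCm38.p6, which shares its coordinates with the authors' mm10. The first lies at chr1:75642534-75642833, 90975 bp downstream of the start of Slc4a3, a chloride/bicarbonate exchanger gene, and its capitals mark 2 directly adjacent copies of the same 35 bases. In the others, capitals mark every match to 23 short transcription factor motifs. They lie at chr4:49467406-49467705 near Acnat1, an acyltransferase gene, at chr11:4080274-4080573 near Sec14l3, a lipid-binding protein gene, at chr3:89799465-89799764 near Ube2q1, a ubiquitin-conjugating enzyme gene, at chr13:4560636-4560935 near Akr1c21, a steroid-metabolising reductase gene, and at chr2:51732421-51732720 with no protein-coding gene start within 100 kb.
Region near Slc4a3: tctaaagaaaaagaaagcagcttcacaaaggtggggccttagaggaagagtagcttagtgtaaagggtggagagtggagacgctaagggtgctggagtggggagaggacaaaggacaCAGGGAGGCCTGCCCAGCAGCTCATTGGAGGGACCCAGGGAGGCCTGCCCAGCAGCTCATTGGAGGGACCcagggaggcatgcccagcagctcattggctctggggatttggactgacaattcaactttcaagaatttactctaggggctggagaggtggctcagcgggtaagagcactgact
Region near Acnat1: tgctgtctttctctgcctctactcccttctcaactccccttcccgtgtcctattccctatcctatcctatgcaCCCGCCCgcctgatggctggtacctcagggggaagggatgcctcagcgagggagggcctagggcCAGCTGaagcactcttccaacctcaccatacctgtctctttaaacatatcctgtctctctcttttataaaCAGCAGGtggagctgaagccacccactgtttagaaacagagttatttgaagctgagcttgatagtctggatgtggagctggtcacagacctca
Region near Sec14l3: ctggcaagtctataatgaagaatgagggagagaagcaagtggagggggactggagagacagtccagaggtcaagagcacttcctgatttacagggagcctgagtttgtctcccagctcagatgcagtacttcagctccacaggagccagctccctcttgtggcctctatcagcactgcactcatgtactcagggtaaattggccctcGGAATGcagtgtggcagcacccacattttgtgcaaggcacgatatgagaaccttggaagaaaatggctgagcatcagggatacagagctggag
Region near Ube2q1: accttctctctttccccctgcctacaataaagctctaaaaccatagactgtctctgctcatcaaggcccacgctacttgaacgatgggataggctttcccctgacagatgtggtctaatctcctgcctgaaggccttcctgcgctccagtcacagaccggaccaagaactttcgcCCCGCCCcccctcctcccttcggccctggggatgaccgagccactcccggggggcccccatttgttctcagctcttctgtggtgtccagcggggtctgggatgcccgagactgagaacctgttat
Region near Akr1c21: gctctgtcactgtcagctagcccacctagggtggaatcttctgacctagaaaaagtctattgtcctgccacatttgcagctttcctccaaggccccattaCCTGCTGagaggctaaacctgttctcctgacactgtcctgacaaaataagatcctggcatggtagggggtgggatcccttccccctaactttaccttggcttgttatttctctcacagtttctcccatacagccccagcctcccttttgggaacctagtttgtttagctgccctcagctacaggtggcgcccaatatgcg
Region on chromosome 2 without a gene: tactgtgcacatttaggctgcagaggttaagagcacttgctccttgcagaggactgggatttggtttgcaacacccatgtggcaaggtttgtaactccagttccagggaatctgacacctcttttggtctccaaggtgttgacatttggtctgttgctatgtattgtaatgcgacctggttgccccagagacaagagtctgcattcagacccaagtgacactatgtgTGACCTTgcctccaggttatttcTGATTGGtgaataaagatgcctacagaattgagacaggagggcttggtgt
The region near Slc4a3 held none of the 23 motifs. The capitals mark KLF/SP (GGGCGGG), an E-box (CAGCTG) and ZIC (CAGCAGG) near Acnat1, TEAD (GGAATG) near Sec14l3, KLF/SP near Ube2q1, ZIC near Akr1c21, and ESRRB (AAGGTCA) and NFY (CCAATCA) on chromosome 2, on either strand. None of the 6 windows held the TCF/LEF motif (CTTTGAT), which was present in 3.49% of all XAV-open windows and 5.00% of all regions. At such shares, its absence from 6 windows is not informative.

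Each library had 161449 to 276451 deposited peaks, and its read depth is unknown. At rank 50000 the −log10 p was 6.84 in KO day 3 replicate 2, the lowest of all libraries, and 21.8 in KO day 2 replicate 1, the highest. An intronic region of Tet1 at chr10:62884128-62884462 was open in 0 of 6 libraries of KO lines and in 10 of 10 others. It was picked among regions near Tet1 for this very pattern, so it is no test of the labels. Promoter regions of formative and primed pluripotency genes were open for 15 of 15 genes in every library, and those of neuroectoderm genes for 18 to 23 of 24. Promoters of genes of other cells were open as well, for 9 to 10 of 10 fibroblast, 10 to 12 of 12 extraembryonic endoderm, 5 to 8 of 9 trophoblast and 6 to 19 of 20 germline genes, so open promoters did not separate cell types here, and the part of other cells in the results was not tested.

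Most of the XAV-open regions lay close to the limit of the rule, and closed seldom meant without a peak. A deposited peak below rank 50000 was present in both WT day 3 libraries at 349 of the 373 regions (93.6%), in 1 at 21 and in 0 at 3. Both WT libraries had a deposited peak at 1049 of the 1866 XAV-closed regions (56.2%). In these bulk libraries, fewer cells with an open region and less opening per cell cannot be told apart. Ranks, in which 1 is the highest −log10 p of a library, had medians over the XAV-open regions of 61986 and 61594 in WT on day 3, 35912 and 37526 in KO, and 38797 and 39485 in KO with XAV. Since the rule set these ranks, they are a description only. Fold enrichment, the ratio to the local background at the summit, had medians of 4.85 and 4.17 in WT, 7.08 and 5.04 in KO, and 7.07 and 7.03 with XAV on day 3. Over all consensus regions these libraries had medians of 6.51 and 5.56, 6.34 and 4.68, and 6.39 and 6.42. Raw fold enrichment is therefore not on the same scale in every library. At the limit itself, the region at chr1:127425000-127425586 near Tmem163 was included with a rank of 49994 in XAV replicate 1, and the region at chr14:11775217-11775545 was not, with a rank of 50009 in that library. Their −log10 p values were 13.364 and 13.363. On the WT side, chr13:12166356-12166843 near Mtr was included with a rank of 50025 in WT replicate 1, whereas chr3:141811053-141811398 near Unc5c had a rank of 49951 there and was not.

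With a gap between open and closed in place of a single limit (all KO and XAV ranks up to 40000 and no WT rank up to 60000, chosen after seeing the data), 26 of the 373 regions (6.97%) were left. These included the regions near Slc4a3, Osbp2, Rap1gds1, Tenm4 and Gata6. Of the 26, 25 had been open in at least 1 library on day 2, as were 90.1% of the 373 and 81.1% of all consensus regions. Of all 373 regions, 229 were open in 1 of 2 MUT day 3 libraries and 144 in 0 of 2, and a rule that asks for 0 of 2 MUT libraries therefore keeps 144. In the reverse direction, 2525 regions were open in both WT libraries of day 3 and in at least 1 MUT library but in 0 of 2 KO libraries. Of these, 717 were also open in 0 of 2 XAV libraries, where the rule itself kept 373 of 2726. The reversed counts were made after seeing the data.

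**Figure D1:**
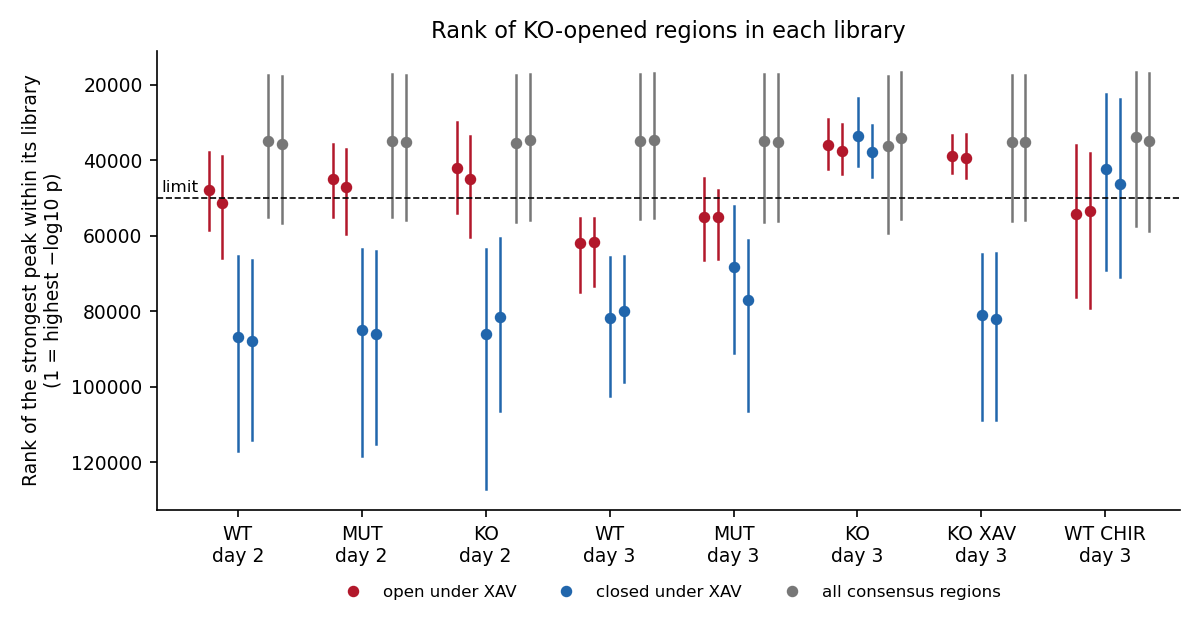
Rank of the strongest deposited peak of each region within its library (y axis, inverted, so that strong peaks are at the top) for the 373 XAV-open regions, the 1866 XAV-closed regions and all 80585 consensus regions, in the 16 libraries (x axis, 2 per group). Points are medians and lines the range from the first to the third quartile, over regions with a deposited peak, and the dashed line is the limit of 50000. On day 2, XAV-open regions have medians from 41995 to 51374 and XAV-closed regions from 81420 to 87829.

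The libraries of day 2 were taken before XAV or CHIR was added and were not used by the rule. Most of the set was open in at least 1 of them, but so were most consensus regions. Of the 373 regions, 336 (90.1%) were open in at least 1 of the 6 day 2 libraries, against 81.1% of all consensus regions. In at least 1 WT library 250 (67.0%) were open, against 71.3% of all, and in at least 1 library of each genotype 201 (53.9%), against 61.2%, so these 2 shares were below those of all regions. Stricter counts were lower than those of all regions too. Both WT libraries were open at 129 regions (34.6%), against 56.8% of all, and both KO libraries at 175 (46.9%), against 56.1%. All 6 day 2 libraries were open at 72 regions (19.3%), against 47.2% of all consensus regions, and 0 of 6 at 37 regions (9.92%), against 18.9% of all. Of the XAV-closed regions, 1516 of 1866 (81.2%) were open in 0 of 6 day 2 libraries, above the share of all regions. Only 11 (0.590%) were open in all 6, below the share of all regions, as in the XAV-open set. XAV-open regions had to be open in both XAV libraries of the same KO lines, and XAV-closed regions closed there. The 2 sets were therefore not selected alike with regard to day 2. The libraries of day 2 also count towards the 2 libraries that a consensus region needs. Over the 73637 regions open in at least 2 libraries of other groups, a count made after seeing the data, the shares were 79.3% for at least 1 of 6, 71.9% for at least 1 WT library, 64.0% for each genotype, 50.8% for all 6 and 20.7% for 0 of 6.

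By library, the share of XAV-open regions that was open on day 2 was 54.7% and 46.9% in WT, 64.9% and 57.1% in MUT, and 68.1% and 56.8% in KO. As group means this was 50.8% ± 5.50 in WT, 61.0% ± 5.50 in MUT and 62.5% ± 7.96 in KO (SD, n = 2 each), so KO and MUT differed by less than the spread between lines, and 1 KO and 1 MUT library lay within 3 percentage points of the higher WT library. With 2 libraries against 2, an exact permutation test cannot give a p below 0.333, and none was run. XAV-closed regions were open at 5.49% ± 1.10 in WT, 6.54% ± 0.910 in MUT and 7.77% ± 1.67 in KO. The order of WT, MUT and KO was the same in both sets, and the ranges of MUT and KO overlapped in both.

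**Figure D2:**
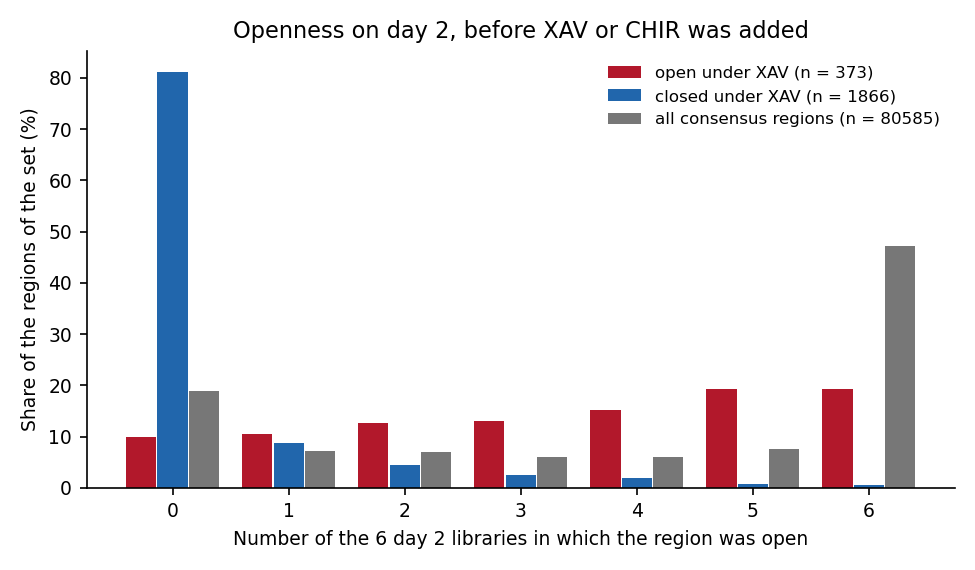
Share of the regions of each set (y axis, %) by the number of the 6 day 2 libraries in which they were open (x axis), for XAV-open, XAV-closed and all consensus regions. XAV-open regions spread over all classes, with 9.92% at 0 and 19.3% at 6, whereas 81.2% of XAV-closed regions are at 0.

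Few regions were specific to KO lines on day 2. A region was open in both KO libraries and in 0 of the 4 WT and MUT libraries in 7 cases (1.88%), against 0.741% of all consensus regions and 0.388% of those that qualify without day 2. Both KO libraries and 0 of 2 WT libraries were open at 23 (6.17%), against 1.97% of all. Nearly the same number, 22 (5.90%), was open in both MUT and 0 of 2 WT libraries, and 9 (2.41%) were open in both WT and 0 of 2 KO libraries, against 1.73% and 2.17% of all. At 45 regions (12.1%, against 9.74% of all) the day 2 openness was in WT or MUT libraries and in no KO library.

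The 7 regions open on day 2 in KO lines alone lay near Osbp2, an oxysterol-binding protein gene, Sec14l3, Eef1akmt1, a lysine methyltransferase gene, Dmrt3, a DM-domain transcription factor gene, Ube2q1, Fam20c, a secretory kinase gene, and 4930564D02Rik. Their ranks in the KO day 2 libraries ran from 16280 to 47933 and those in WT and MUT from 52046 to 113960 where a peak was deposited. At chr3:89799451-89799778, 25327 bp from the start of Ube2q1, fold enrichment on day 2 was 6.81 and 6.39 in KO, while WT and MUT each had 1 library without a peak and 1 with 4.16 and 3.81. On day 3 the values there were 5.61 and 5.36 in KO and 6.41 and 5.80 with XAV. WT had no deposited peak there on day 3, MUT had 3.47 and 3.46, and CHIR 6.12 and 5.56. Because the rule and the day 2 pattern chose this region, the gap of KO and XAV to untreated WT and MUT is a description. CHIR, used by neither choice, had 1 value within the day 3 range of KO without XAV and 1 above it. At chr11:4080244-4080604, 9015 bp from the start of Sec14l3, fold enrichment on day 2 was 7.52 and 8.37 in KO, 4.58 and 4.87 in WT, and 5.08 and 5.42 in MUT. On day 3 the KO libraries had 6.90 and 6.26 and those with XAV 6.05 and 5.98, against 4.22 and 4.42 for WT and 5.06 and 4.16 for MUT, values that chose the region as well. CHIR had 4.73 and 6.65, 1 value within the KO range of day 3 and 1 below it. None of the 7 passed the test described next, with log2 fold changes of KO over WT from 0.29 to 1.64 and adjusted p values from 0.481 to 0.922 (limma, Benjamini-Hochberg).

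Differences on day 2 were tested with limma on log2(fold enrichment + 1), quantile normalised, over the 76261 regions with a deposited peak in at least 2 of 6 libraries, which included all 373 of the set. Its p-values rest on a spread per region that is pooled over the 2 lines of each genotype and moderated over all regions tested. For MUT, and perhaps WT, these lines are clones. Against WT, 0 of the 373 were higher in KO at an adjusted p of 0.05, as were 0 (0%) of all regions tested, and 0 were lower, as was 1 of all (0.00131%). At an unadjusted p of 0.05, 28 of the 373 were higher in KO (7.51%, against 2.78% of all) and 5 lower (1.34%, against 3.32% of all). The rule had chosen the 373 for ranks within the limit in the same KO lines, and beyond it in WT, on day 3. All regions were not chosen so, and the contrast of these shares is a description only. Against MUT, 2 of the 373 were higher in KO, where 8 (0.0105%) of all regions were, and 0 were lower, where 1 (0.00131%) of all was. Between MUT and WT 0 of the 373 passed, with 11 higher (2.95%, against 2.02% of all) and 3 lower (0.804%, against 2.54%) at an unadjusted p of 0.05. At an adjusted p of 0.05 the test called 0.00262% of all regions higher in MUT and 0.00787% lower. The median log2 fold change over the set was 0.11 for KO over WT, 0.03 for KO over MUT and 0.06 for MUT over WT, where the median over all regions was 0.00, 0.00 and 0.01. XAV-closed regions had larger medians for KO over WT, 0.16, and KO over MUT, 0.13, and a smaller one for MUT over WT, 0.04. This order depended on the processing. Without the filter on regions with few peaks, the XAV-closed medians were 0.048 for KO over WT and 0.016 for KO over MUT. Those of XAV-open regions were then 0.111 and 0.034. Without normalisation, the medians for KO over WT were 0.017 in XAV-closed and 0.021 in XAV-open regions. Which set had the larger shift towards KO therefore cannot be said. Of the XAV-open regions, 249 of 373 (66.8%) had a positive value for KO over WT, against 50.6% of all, again a description only.

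The 2 regions that passed against MUT lay near Slc4a3 and Acnat1. At the intergenic region chr1:75642525-75642843 near Slc4a3, fold enrichment on day 2 was 19.8 and 16.5 in KO, 8.12 and 6.46 in WT, and 5.47 and 7.32 in MUT. On day 3 the KO libraries had 19.7 and 16.1, those with XAV 21.3 and 23.8, those of WT 5.54 and 4.67, those of MUT 5.10 and 3.97, and those of WT with CHIR 3.57 and 3.36. On day 2 both KO libraries were higher than all 4 WT and MUT libraries, and both CHIR libraries were below those of all other groups, whereas the day 3 values of KO, XAV, WT and MUT chose the region. Its ranks were 134 to 2397 in the KO lines and 37260 to 108472 in the others, so that it was among the strongest peaks of the KO lines and near or below the limit elsewhere. The log2 fold change of KO over MUT on day 2 was 1.40 (SE 0.163, adjusted p = 0.00733 by limma), and that over WT was 1.26, with an adjusted p of 0.0721.

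At chr4:49467365-49467747, an annotated intron 6323 bp from the start of Acnat1, fold enrichment on day 2 was 18.5 and 12.7 in KO, 6.37 and 7.48 in WT, and 6.90 and 6.10 in MUT. The log2 fold change of KO over MUT was 1.15 (SE 0.151, adjusted p = 0.0271 by limma) and that over WT 1.13, with an adjusted p of 0.0721. On day 3 the values were 9.02 and 6.84 in KO, 8.20 and 10.4 with XAV, 5.54 and 5.00 in WT, and 6.12 and 3.36 in MUT. The KO values of day 3 were thus below those of day 2. Ranks above those of WT were required by the rule there, and CHIR had 4.49 in 1 library and no deposited peak in the other. Neither region passed against MUT without normalisation between libraries, without the filter on regions with few peaks, or without either KO library, and 1 of the 2 passed without MUT replicate 2.

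**Figure D3:**
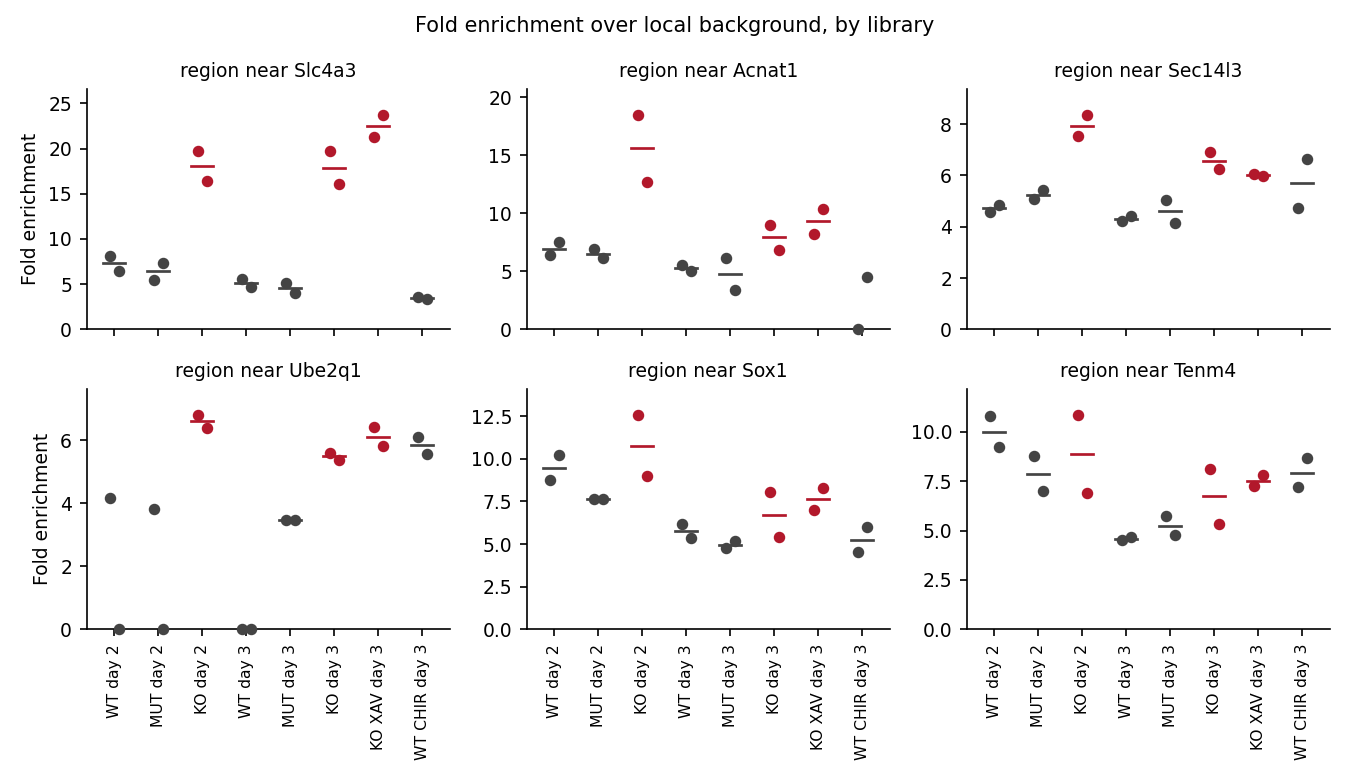
Fold enrichment over local background (y axis, starting at 0, a separate scale per panel) in each library at 6 XAV-open regions, by group (x axis). Points are libraries, 2 per group, horizontal lines are group means where both libraries had a peak, KO libraries are red, and 0 stands for no deposited peak. Near Slc4a3 the 6 libraries of KO lines range from 16.1 to 23.8 and the other 10 from 3.36 to 8.12, whereas near Sox1 and Tenm4 all 6 day 2 libraries lie between 6.89 and 12.6.

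The other 9 of the 10 regions with the strongest peaks across the KO and XAV libraries had a lowest −log10 p of 16.2 to 23.2 over those 4 libraries, against 47.7 near Slc4a3. They lay near Akr1c21, Rap1gds1, a GTPase exchange factor gene, Olfr867, an olfactory receptor gene, Capzb, an actin-capping protein gene, Syt2, a synaptotagmin gene, and Mrpl14, a mitochondrial ribosomal protein gene, and 3 had no gene start within 100 kb. None of the 9 was open in KO lines alone on day 2. The region near Rap1gds1 at chr3:139005686-139006093 was open in all 6 day 2 libraries and both CHIR libraries, and ranked 61897 and 101813 in WT on day 3. The region near Syt2 at chr1:134700680-134701009 had no deposited peak in either CHIR library and was open in 1 WT, 0 MUT and 2 KO libraries on day 2.

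CHIR raises Wnt signalling in WT cells, and its libraries did not decide which consensus regions entered the set, although they count among the 16 that define those regions. Of the 373 XAV-open regions, 110 (29.5%) were open in both CHIR libraries, 79 in 1 and 184 in 0. Of the 22584 regions closed in both WT day 3 libraries 39.2% were open in both, but this share includes regions with fewer than 2 other libraries, which the CHIR libraries brought in. Over the 15169 of them that were open in at least 2 libraries other than CHIR, a count made after seeing the data, 2237 (14.7%) were open in both, so the XAV-open share lay below the one background and above the other. Among XAV-closed regions 835 of 1866 (44.7%) were open in both. The share open per CHIR library was 37.8% and 42.4% for XAV-open regions and 52.8% and 49.8% for XAV-closed regions. On day 2, before any treatment, the order of the sets was the reverse, as the WT libraries showed. XAV-open regions that were open in all 6 day 2 libraries were open in both CHIR libraries in 18 of 72 cases (25.0%), and those open in 0 of 6 in 13 of 37 (35.1%). Those open in 1 MUT day 3 library were so in 81 of 229 cases (35.4%), and those open in 0 in 29 of 144 (20.1%).

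**Figure D4:**
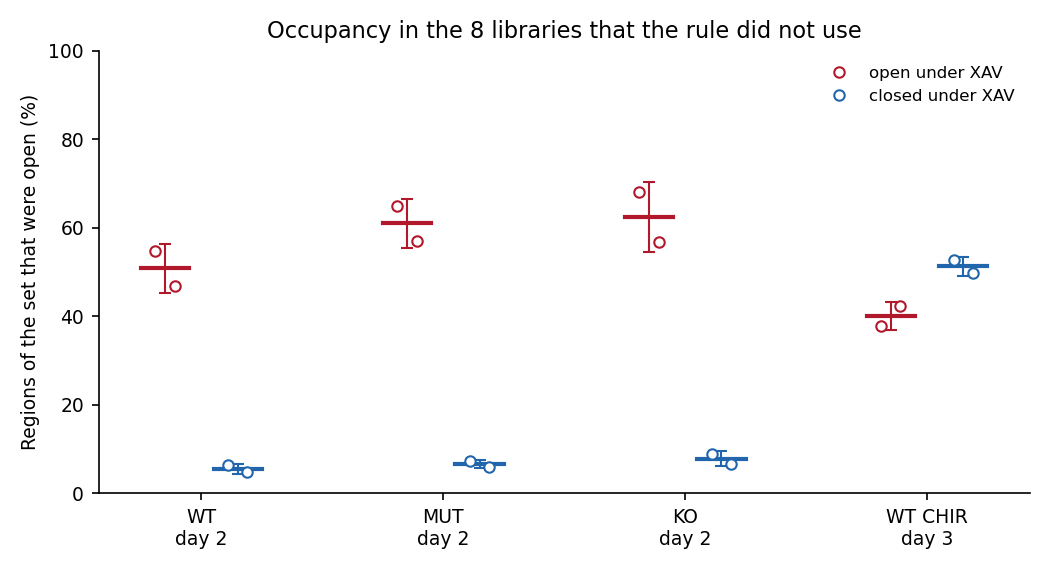
Share of the 373 XAV-open and the 1866 XAV-closed regions that was open (y axis, %) in the 8 libraries that the rule did not use (x axis). Open circles are libraries, lines are means and bars are SD (n = 2). XAV-open regions have 46.9% to 68.1% on day 2 and 37.8% to 42.4% with CHIR, and XAV-closed regions 4.72% to 8.95% and 49.8% to 52.8%.

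The XAV-open regions were mostly distal. Of the 373, 294 (78.8%) lay over 3 kb from every annotated transcription start site, close to the 80.5% of XAV-closed regions and above the 59.1% of all consensus regions. In GENCODE M21, 175 centres lay in an intron, 164 between genes, 15 in a coding exon, 9 in an untranslated region and 10 in a noncoding exon. The mean number of CpG dinucleotides in the central 300 bp was 4.58, against 3.52 in XAV-closed and 9.34 in all regions, and the median GC content was 51.0%, 50.0% and 53.7%. Repeats, marked in lower case in the reference, covered over 50% of the window at 31 regions (8.31%), against 3.64% of XAV-closed and 3.35% of all regions.

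Motifs of factors that act downstream of Wnt and in the primitive streak had lower counts in XAV-open than in XAV-closed windows, a description with no test. CTTTGAT, bound by TCF/LEF factors, was present on either strand in 13 of 373 windows (3.49%), in 10.7% of XAV-closed windows and in 5.00% of all. GGTGTGA, a motif of T-box factors such as Brachyury and Eomes, was present in 29 (7.77%), 15.8% and 5.81%, and TGTTTAC, a forkhead motif, in 22 (5.90%), 11.2% and 3.88%. AGATAAG, the motif of GATA factors, was present in 3.75%, 6.27% and 3.29%. With distal regions alone the shares were 3.40%, 11.2% and 6.29% for TCF/LEF, 7.48%, 15.8% and 6.78% for T-box, and 6.12%, 11.9% and 4.62% for forkhead motifs. For the other motifs the XAV-open share lay within 3 percentage points of both other distal sets, except TEAD (GGAATG) at 14.6%, 19.4% and 21.3%, AP-1 (TGANTCA) at 8.50%, 10.98% and 14.6%, ZIC at 24.1%, 28.7% and 23.8%, and the E-box CAGCTG at 24.8%, 29.9% and 26.2%. A match is a stretch of letters and not a measured binding site.

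**Figure D5:**
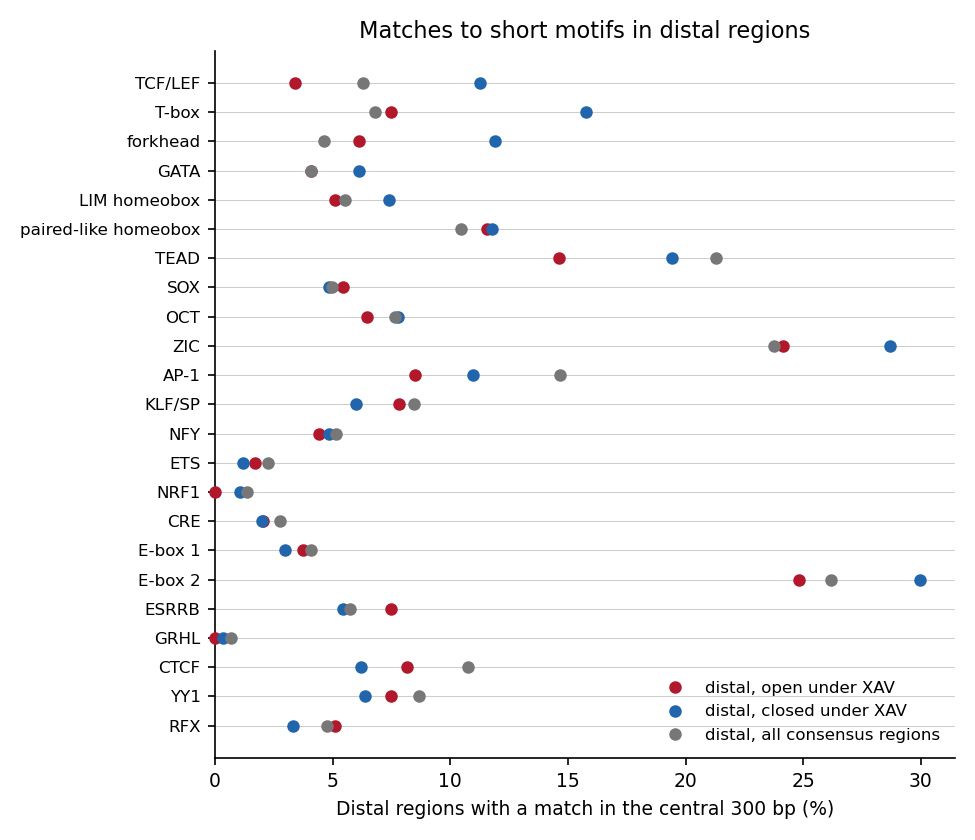
Share of distal regions with a match in the central 300 bp (x axis, %) for 23 motifs (y axis), in XAV-open (294 regions), XAV-closed (1503) and all distal consensus regions (47594). E-box 1 is CACGTG and E-box 2 is CAGCTG. For TCF/LEF, T-box and forkhead motifs the XAV-closed share is the highest of the 3. The same holds for GATA, LIM homeobox, paired-like homeobox, OCT, ZIC and E-box 2.

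The nearest genes of the set were spread thin. Within 100 kb, 317 regions had a protein-coding gene start, at 312 genes, which is 1.79% of the 17395 genes with any consensus region. No gene had more than 2 regions, and the 5 with 2, named after their values were seen, were Ttc39c, Ttc7b, Gm10203, Fggy and Pax7. The median gap to the next region of the set was 3368.2 kb, and 9 lay within 100 kb of the next. Per 1000 consensus regions there were 2.81 on chromosome X to 5.87 on chromosome 12, and 0 on chromosome Y with its 24 regions. Within 10 Mb of Tet1, the targeted gene, 1 of 650 consensus regions belonged to the set. It lay at chr10:61978016-61978333 at the start of Col13a1, a collagen gene, and was open on day 2 in 1 WT, 2 MUT and 1 KO library.

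The list of Wnt pathway genes had 1 region of the set among 28 genes, near Znrf3, which encodes a ubiquitin ligase that removes Wnt receptors. An XAV-closed region was present at 11 of the 28. The region near Znrf3 at chr11:5474198-5474577 was open on day 2 in 1 MUT library only. Wnt3a, a Wnt ligand gene named here after its values were seen, is on none of the lists. It had a region of the set at chr11:59263847-59264362, open on day 2 in 0 WT, 2 MUT and 1 KO library. That region was open in both CHIR libraries. Wnt8a is counted with the primitive streak genes alone. Primitive streak genes had 2 of 18, near Gsc, an organizer homeobox gene, and Wnt8a, a Wnt ligand of the streak, where 11 of 18 had an XAV-closed region. Nodal pathway genes had 0 of 13 against 5, mesoderm genes 0 of 18 against 2 and posterior genes 0 of 13 against 2. Definitive endoderm genes had 1 of 15, near Gata6, an endoderm factor that is also on the extraembryonic endoderm list (1 of 14), against 3 and 1 with an XAV-closed region. The region near Gata6 at chr18:11129518-11129917 was open on day 2 in both WT and both MUT libraries and in 0 of 2 KO libraries, the reverse of its day 3 state in WT and KO, and it was open in 1 MUT library on day 3. The region near Wnt8a at chr18:34541259-34541577, 895 bp from its start, was open in 1 KO library only on day 2 and in both CHIR libraries.

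Neuroectoderm genes had regions at 3 of 24, near Sox1 and Sox2, both transcription factors of early neural cells, and near Pax2, a midbrain and hindbrain factor, where 1 of 24 had an XAV-closed region. At chr8:12420508-12420889, 25404 bp downstream of the start of Sox1, all 6 day 2 libraries were open, with fold enrichment of 8.74 and 10.2 in WT, 7.61 and 7.63 in MUT, and 12.6 and 8.97 in KO. The values of day 3 were 6.16 and 5.33 for WT, 4.76 and 5.18 for MUT, 8.05 and 5.40 for KO, and 6.99 and 8.26 for KO with XAV. The KO and WT values of day 3 overlapped there, although the ranks within each library, 53982 and 52838 in WT and 35795 and 37975 in KO, fell on either side of the limit. Raw values differ in scale between libraries, with day 3 medians over all consensus regions of 6.51 and 5.56 in WT and 6.34 and 4.68 in KO. The region in the coding exon of Sox2 at chr3:34650861-34651253 was open on day 2 in 2 WT, 1 MUT and 1 KO library and in both CHIR libraries, and that near Pax2 was open in 0 of 6 day 2 libraries and 0 of 2 CHIR libraries.

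Neural crest and surface ectoderm genes had regions at 3 of 15, against 4 with an XAV-closed region. They were Pax7, with 2 regions, Tfap2c, which is also on the trophoblast list (1 of 10), and Dlx3, an ectodermal homeobox gene. The region near Tfap2c at chr2:172607797-172608144 was open in all 6 day 2 and both CHIR libraries. The Pax7 region at chr4:139756902-139757390 was open on day 2 in both WT and both MUT libraries and in 0 of 2 KO libraries, as near Gata6. Neuronal adhesion genes had 2 of 26 against 6, near Tenm4, a teneurin, and Opcml, an immunoglobulin-domain adhesion gene. At chr7:96440189-96440582 in Tenm4, all 6 day 2 libraries were open, with 10.8 and 9.23 in WT, 8.76 and 7.00 in MUT, and 10.9 and 6.89 in KO, and on day 3 the values were 4.5 and 4.67 in WT, 5.71 and 4.79 in MUT, 8.14 and 5.34 in KO, 7.24 and 7.80 with XAV, and 7.21 and 8.67 with CHIR. The rule required WT to rank below the limit on day 3 there.

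Of the remaining lists, formative and primed pluripotency genes had 1 of 15, near Sall4, a zinc finger factor of pluripotent cells, against 4 with an XAV-closed region, and germline genes 1 of 21, near Zcwpw1, a meiotic histone reader, against 1. Fibroblast genes had 1 of 13, near Sparc, a matrix protein gene, against 0. Naive pluripotency genes had 0 of 15 against 3, Tet and Dnmt genes 0 of 10 against 1, imprinted genes 0 of 24 against 5 and housekeeping genes 0 of 15 against 1. Over all genes, 312 of 17395 had an XAV-open region (1.79%) and 1276 an XAV-closed region (7.34%). No region near a list gene was among the 7 that were open on day 2 in both KO libraries alone.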

How the data were processed

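The authors' reads went through the ENCODE ATAC-seq pipeline (mm10), and 1 peak list per library was deposited, with the fold enrichment at the summit, a ratio to local background, and the −log10 p of the peak caller, down to a −log10 p of 2. Versions of aligner and caller: not given in the sources used here. DiffBind 3.0.15 lists hold the authors' own comparison of KO and WT cells on day 3 and were not used. In the 3 day 2 groups, the list of replicate 2 is named as merged. The regions and gene lists were chosen with earlier results of these data known.

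Intervals shared by several summits were counted once. Genes were those with the nearest protein-coding start within 100 kb (GENCODE M21, GRCm38.p6). Named regions were the 10 with the highest lowest −log10 p over KO and XAV libraries, those at genes of the 18 lists (311 genes), those open in KO alone on day 2, those called by limma, and those within 10 Mb of Tet1. limma 3.58.1 (R 4.3.3, empirical Bayes with trend) fitted 3 groups of 2 with a pseudocount of 1, and was tested on simulated data. Lines with separate names, clones in MUT, are the replicates. Signal tracks and reads were not used here. Alternatives changed the number of kept intervals, the window, the overlap, the MUT condition, the pseudocount, the normalisation and the filter, and left out each library in turn.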

Additional observations from a re-analysis of the deposited data

How the results depend on the processing

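The size of the set depended on the limit. It was 373 regions (13.68% of KO-opened regions), 225 (15.18%) with 30000 kept intervals, 717 (20.34%) with every interval with a −log10 q of at least 2, 144 (7.86%) with 0 of 2 MUT libraries open, and 26 with the rank gap, added after seeing the data. Leaving out each library in turn gave 251 to 820 regions and 10.98% to 22.81%. The count was 820 without WT day 3 replicate 1, 677 without replicate 2, 640 and 689 without KO day 3 replicate 1 and 2, and 615 and 618 without XAV replicate 1 and 2. Regions open in KO alone on day 2 numbered 7, 16 with 70000 intervals and 6 to 19 without 1 library. Regions open in all 6 day 2 libraries numbered 72, 110 with 70000 intervals, 186 with the q limit, 22 with the MUT condition and 44 to 233 without 1 library. Regions open in both CHIR libraries numbered 110, then 50 with 30000 intervals, 241 with the q limit, 29 with the MUT condition and 62 to 272 without 1 library. Calls in the set for KO over WT were 0 to 3 without 1 library, those for KO over MUT were 0 without normalisation, 0 without the filter and 0 to 2 without 1 library, and those for MUT over WT were 0 to 1. The causes were not tested. The distal share was 68.9% to 81.9% and the TCF/LEF share 2.78% to 5.78% over all settings. No paired analysis was possible because the genotypes compared on day 2 share no cell line, so their replicate numbers pair nothing.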
